A study of Homo sapiens with 9 samples.

Results

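The replication-dependent histone genes code for the histones that package newly made DNA. They were taken as every gene whose current symbol is H1-1 to H1-6 or begins with H2AC, H2BC, H3C or H4C followed by a number, pseudogenes excluded. The rule found 68 of the 57338 genes in the table: 6 for the linker histone H1, 17 for H2A, 18 for H2B, 12 for H3 and 15 for H4. In GENCODE 29 on GRCh38, 55 of them lay on chromosome 6 between 25726132 and 27893843, 12 on chromosome 1 and 1 on chromosome 12. RNA was measured in 9 libraries, all labelled as HEK293T, an established line of human embryonic kidney origin with the large T antigen of SV40. By the labels and methods, the empty vector group (3 libraries) received the plasmid with EGFP alone, the hPRM1 and hPRM2 groups (3 libraries each) received human protamine 1 or protamine 2 as a fusion with EGFP, and all were sorted for high EGFP signal 3 days after transfection, a transient overexpression in a single cell line. The 3 libraries labelled hPRM1 go against this: PRM1 was at 0 in them, and markers of red and white blood cells were very high. Nothing in the labels says that the libraries of a group came from separate transfections, so p-values measure only the spread between these libraries.

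Histone octamers hold H2A, H2B, H3 and H4, and H1 binds the DNA between them. Messages of the replication-dependent genes are made in S phase, carry no introns and normally end just after a conserved stem-loop that SLBP binds, in place of a poly(A) tail, while minor polyadenylated forms of many of these genes are known. During spermatid maturation protamines take the place of most histones on DNA. The libraries read the 3′ ends of polyadenylated RNA, primed with oligo(dT), so the levels given here are those of messages, or of A-rich stretches, that oligo(dT) could prime.

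The 3′ ends of the annotated messages are shown because they differ between the genes that the results turn on. The stem-loop was searched on the sense strand of GENCODE 29 transcripts as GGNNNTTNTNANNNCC with a stem of 6 bases on each side that pair, G with T included. It was found in 30 of the 68 genes (44.1%) and in 178 of 56998 genes of all kinds (0.312%). 5 genes carry it as follows, with the stem-loop in capitals and 5 flanking bases on each side. H2BC21 lies at chr1:149886183-149886208 on the minus strand, H4C5 at chr6:26204996-26205021, H2AC13 at chr6:27808642-27808667 and H4C11 at chr6:27824454-27824479, all 3 on the plus strand.
H2BC21: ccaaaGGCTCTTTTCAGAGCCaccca
H2AC13: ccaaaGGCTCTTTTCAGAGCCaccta
H2BC4: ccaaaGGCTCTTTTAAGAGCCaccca
H4C5: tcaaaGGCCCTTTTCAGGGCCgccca
H4C11: taaaaGGCCCTTTTCAGGGCCaccct
The stem of the printed H4 genes differs from that of the H2A and H2B genes, and the loop differs in H2BC4. Among the 30 genes, the form of H2BC21 stood in 16 genes of the H2A, H2B and H3 classes and the form of H4C5 in 5 H4 genes. A match is a description of these letters only.

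No stem-loop was found in the other 38 annotated transcripts, and 33 of these models stop at the stop codon, so that their length is a coding length. H4C3 and H1-2, the genes with the highest means in the empty vector, are among the 38, and of these 2 only the H1-2 model stops at the stop codon. Their last 30 annotated bases are shown with each A in capitals, since oligo(dT) can prime on runs of A. H4C3 ends at chr6:26104281-26104310 on the plus strand and H1-2 at chr6:26055787-26055816 on the minus strand.
H4C3: tgAgAActtcAAAAAAcAAAAAcAAAAAAA
H1-2: cctAAgAAggcggcgcccAAgAAgAAAtAg
The H4C3 stretch holds 21 A of 30 with a longest run of 7. The median over the 68 genes was 11 A, with a range of 3 to 30, and only H2BC8 also reached 21 or more, at 30. Of all 49972 genes measured in this way, 0.993% reached 21. Whether oligo(dT) primed inside the H4C3 message was not tested.

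Promoters are shown for 4 genes whose levels are followed below, as the 250 bases before the start of the gene in RefSeq (GRCh38.p14). Motifs searched on both strands are in capitals: TATAAA, which the TATA-binding protein recognises, CCAAT, the site of NF-Y, ATTTGCAT, the octamer of OCT factors, GGTCCG, the core of the HINFP site, and TTTCGCGC, a site of E2F factors. H1-2 lies at chr6:26056471-26056720 and H2BC12 at chr6:27146859-27147108 on the minus strand, H2BC21 at chr1:149886683-149886932 on the minus strand and H4C5 at chr6:26204360-26204609 on the plus strand.
H1-2: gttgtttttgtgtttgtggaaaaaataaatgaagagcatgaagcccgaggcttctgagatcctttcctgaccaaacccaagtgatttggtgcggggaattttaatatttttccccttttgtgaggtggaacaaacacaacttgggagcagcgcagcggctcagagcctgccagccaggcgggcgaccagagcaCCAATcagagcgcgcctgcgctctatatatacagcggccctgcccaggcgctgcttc
H2BC12: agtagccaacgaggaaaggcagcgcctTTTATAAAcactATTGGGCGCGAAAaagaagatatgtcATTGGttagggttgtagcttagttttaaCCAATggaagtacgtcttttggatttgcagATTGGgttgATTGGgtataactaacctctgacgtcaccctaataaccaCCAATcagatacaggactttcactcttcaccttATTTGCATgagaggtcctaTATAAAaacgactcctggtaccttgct
H2BC21: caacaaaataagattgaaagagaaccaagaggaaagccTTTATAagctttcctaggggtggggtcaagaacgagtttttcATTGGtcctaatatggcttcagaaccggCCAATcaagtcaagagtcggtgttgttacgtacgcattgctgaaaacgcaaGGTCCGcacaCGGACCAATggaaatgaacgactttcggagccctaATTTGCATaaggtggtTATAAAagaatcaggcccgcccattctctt
H4C5: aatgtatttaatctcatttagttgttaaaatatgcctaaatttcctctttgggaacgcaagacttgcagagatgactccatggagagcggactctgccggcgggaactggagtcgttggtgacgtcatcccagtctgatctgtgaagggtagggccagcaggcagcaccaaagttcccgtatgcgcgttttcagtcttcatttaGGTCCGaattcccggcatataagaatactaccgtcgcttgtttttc
Capital runs join where motifs adjoin or overlap, as CCAAT and TTTCGCGC adjoin in H2BC12. Over windows that also held the first 50 bases of the gene, CCAAT stood in 53 of 63 histone genes (84.1%) and in 34.6% of all 35116 promoters. It was in each H1, H2A, H2B and H3 window and in 3 of 13 H4 windows. The octamer stood in 11 of 16 H2A and 14 of 18 H2B windows, in 1 of 10 H3 windows and in no H1 or H4 window, and in 1.77% of all promoters. GGTCCG stood in 12 of 13 H4 windows and in 11.3% of all promoters. Windows of 23 histone genes overlap that of another member, so these counts are not independent. H2AC12, H3C11, H3C12, H4C1 and H4C3 were not matched.

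The libraries differed in ways that touch every comparison. Reads on genes, estimated from the step that 1 read gives, came to 7928000 to 10785000 in the empty vector, 4211000 to 5863000 in the hPRM1-labelled libraries and 1273000 to 2653000 in hPRM2. PRM2 reached 36130 to 71224 RPKM in hPRM2 and was listed at 0 elsewhere, whereas PRM1 was listed at 0 in all 9 libraries, also in those labelled hPRM1. The hPRM1-labelled libraries carry library numbers apart from the other 6. The labels name no batch, and any difference that goes with these numbers cannot be told apart from the label. In them, the summed level of 12 erythroid markers was 2061140 to 2267480 RPKM, against 3.09 to 18.2 in the empty vector and 2.16 to 16.3 in hPRM2. Of the 12, 9 (HBB, AHSP and ALAS2 among them) were at 0 in all 6 other libraries and none in those labelled hPRM1. The sum of 14 leukocyte markers was 6131 to 7018 RPKM in the hPRM1-labelled libraries and at most 20.7 elsewhere, and TYROBP and LYZ were at 0 in all other libraries. Of the markers that passed the filter, 9 of 9 erythroid and 13 of 13 leukocyte genes were higher there than in the empty vector, beside 12.9% of all genes. Of these, 6 and 12 had passed only through those libraries. None of the 2 erythroid and 1 leukocyte genes tested in hPRM2 was called, beside 2.74% of all genes. The part of these markers in any histone result was not tested. In hPRM2, replicate 1 stood apart with 9652 genes above 0, while the other 8 libraries had 14353 to 16705.

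Not all of the histone genes were seen, and few were seen in every library. Of the 68, 22 were listed at 0 in all 9 libraries, 46 were above 0 in at least 1 library and 4 were above 0 in all 9. The empty vector libraries had 32, 36 and 28 histone genes above 0, those labelled hPRM1 31, 27 and 25, and hPRM2 11, 29 and 29. Of all 57338 genes, the empty vector libraries had 14724 to 16705 above 0. Those labelled hPRM1 had 15116 to 15655, and hPRM2 9652 to 15633. The lowest number of histone genes is that of hPRM2 replicate 1, also the library with the fewest genes of any kind. It nevertheless had the most estimated reads of the hPRM2 libraries, 2653000 against 1273000 and 1608000 in replicates 2 and 3. Among the 22 genes at 0 were 3 of 6 H1, 5 of 17 H2A, 4 of 18 H2B, 6 of 12 H3 and 4 of 15 H4 genes. Where a gene was listed at 0, as many as 3 reads remain possible, or 1.5 to 12.7 RPKM for a gene of the length of H4C3, depending on the library.

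**Figure D1:**
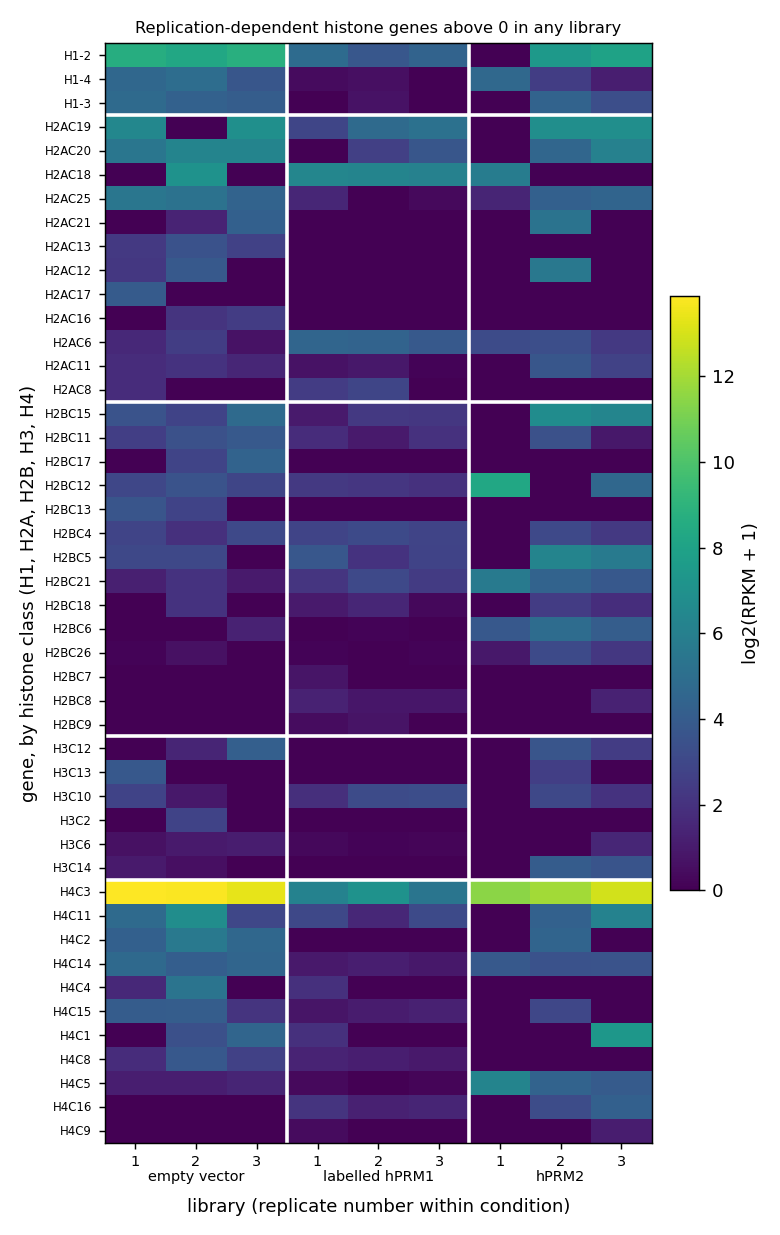
Level of the 46 histone genes above 0 in at least 1 library, as log2(RPKM + 1) by colour, with genes in rows grouped by class and ordered by their empty vector mean, and the 9 libraries in columns. H4C3 is the brightest row in the empty vector and hPRM2, most genes are near 0, and hPRM2 replicate 1 has 11 genes above 0.

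1 gene held most of the signal. H4C3 (ENSG00000197061, chr6:26103876-26104310), an H4 gene, reached 15117, 14250 and 10505 RPKM in empty vector libraries, 69.1, 134 and 41.4 RPKM in the hPRM1-labelled libraries and 2814, 3944 and 7831 RPKM in hPRM2. The 3 groups did not overlap, with the empty vector highest and the hPRM1-labelled libraries lowest. In the empty vector H4C3 made up 92.2% to 94.9% of the RPKM summed over all 68 genes, in hPRM2 82.3% to 89.0%, and in the hPRM1-labelled libraries 17.2% to 40.6%. These shares depend on length, since RPKM divides 3′ reads by a length and the H4C3 model is short. As reads, H4C3 had 22171, 22545 and 20961 in the empty vector, 75, 104 and 40 in the hPRM1-labelled libraries and 1381, 929 and 2330 in hPRM2. Of the reads on the 49 histone genes with 1 annotated transcript, H4C3 took 88.0% to 91.2% in the empty vector.

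The other 67 genes together had 807, 966 and 889 RPKM in empty vector libraries, 201, 196 and 199 RPKM in the hPRM1-labelled libraries and 561, 850 and 968 RPKM in hPRM2. The sum was thus lowest in the hPRM1-labelled libraries, without overlap, and the ranges of hPRM2 and the empty vector overlapped. H1-2 was the only other gene at 100 RPKM or more in all 3 empty vector libraries, and 62 of the 68 genes stayed below 50 RPKM in each of them. Without H4C3, the classes by mean in the empty vector came in the order H1 (425 ± 52.5 RPKM, SD, n = 3), H2A (242 ± 42.0), H4 (144 ± 94.5), H2B (60.8 ± 15.04) and H3 (16.3 ± 5.70). The neighbours H2A and H4 did not lie apart, since H4 ranged from 86.0 to 253 RPKM and H2A from 199 to 283 RPKM.

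The comparison of the hPRM1-labelled libraries with the empty vector asks how histone messages stood in those libraries. Of the 68 genes, 28 passed the filter (at least 1 RPKM in at least 3 of the 6 libraries) and were tested with limma on log2(RPKM + 1), and 40 did not pass. Of the 28, 6 (H1-3, H1-4, H2AC11, H2AC13, H4C2 and H4C5) passed only through the empty vector, being below 1 RPKM in each hPRM1-labelled library, and 1 (H4C16) only through the hPRM1-labelled libraries, so these had to differ. A call needed an adjusted p of at most 0.05 (Benjamini-Hochberg over 13588 genes) and a change of at least 2-fold. H4C3, the H1 genes and several H2A and H4 genes were lower: 15 of 28 genes (53.6%) were called lower, beside 62.5% of all genes tested. H2AC6, H4C16 and H2BC21 were higher: 3 of 28 (10.7%), beside 12.9% of all genes. Without the 7 genes whose direction the filter fixed, 9 of 21 were lower and 2 higher. The median log2 fold change was -1.69 over the 28 histone genes and -1.72 over all genes tested, so both shares of the set were below those of all genes and the medians were close. The groups did not overlap for 16 of the 28 genes with the hPRM1-labelled libraries below and for 3 with them above, beside 66.4% and 14.5% of all genes (80.8% in either direction). Fewer cells of a type and less RNA per cell cannot be told apart in such bulk libraries.

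With the pseudocount of 1, H4C3 had the largest fall of the set in these libraries. Its log2 fold change was -7.48 (SE 0.42, limma adjusted p = 1.10e-05), and the ratio of the group means was 163. Relative to the median of all genes the difference was -5.76. H4C2, another H4 gene, was at 18.1, 47.9 and 24.2 RPKM in empty vector libraries and at 0 in all hPRM1-labelled libraries. With 0 taken as 3 reads over the group, it was at least 28.8-fold lower. With a pseudocount of 0.1 the log2 fold change of H4C2 was -8.11, so the order of H4C2 and H4C3 depends on the pseudocount. H4C14 had 25.9, 16.5 and 22.4 RPKM in empty vector libraries and 0.900, 1.22 and 0.876 RPKM in the hPRM1-labelled libraries, a log2 fold change of -3.48 (SE 0.24, limma adjusted p = 2.32e-05). No library labelled hPRM1 reached the empty vector range for these 3 genes. H4C11, among the higher H4 genes in the empty vector, had 26.7, 109 and 6.78 RPKM there and 6.93, 1.93 and 7.78 RPKM in the hPRM1-labelled libraries, where the groups overlapped (-2.29, SE 0.97, limma adjusted p = 0.0651). In the H4 class, 6 of the 10 genes tested were called lower and 1 higher, beside 62.5% and 12.9% of all genes. The lower calls of H4C2 and H4C5 and the higher call of H4C16 were in the direction that the filter fixed.

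H1-2, a main somatic linker histone (ENSG00000187837, chr6:26055787-26056428), was at 395, 315 and 435 RPKM in empty vector libraries, 27.4, 12.7 and 20.01 RPKM in the hPRM1-labelled libraries and 0, 176 and 252 RPKM in hPRM2. The hPRM1-labelled libraries lay below all others but hPRM2 replicate 1, in which H1-2 was not seen. Its log2 fold change in the hPRM1-labelled libraries was -4.24 (SE 0.30, limma adjusted p = 2.65e-05), and the ratio of means was 19.1. The H1-2 call was lost when all 9 libraries were fitted together (adjusted p = 0.0660). H1-3 and H1-4, also linker histones, had means of 20.6 and 22.1 RPKM in empty vector libraries and 0.190 and 0.270 RPKM in the hPRM1-labelled libraries. Both were called lower, H1-3 by -4.19 (limma adjusted p = 2.85e-05) and H1-4 by -4.11 (limma adjusted p = 7.69e-05). These means rest on 1 read of H1-3 and 2 reads of H1-4 over the 3 hPRM1-labelled libraries, against 228 and 292 reads in the empty vector. Since H1-3 and H1-4 passed the filter only through the empty vector, H1-2 is the only H1 gene whose direction the filter left free. H1-1, H1-5 and H1-6 were at 0 throughout.

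In the H2A class, 4 of 8 genes tested were lower and 1 was higher, beside 62.5% and 12.9% of all genes, and the lower calls of H2AC11 and H2AC13 were in the direction that the filter fixed. H2AC25 had 42.2, 37.2 and 20.4 RPKM in empty vector libraries and 1.85, 0 and 0.297 RPKM in the hPRM1-labelled libraries, a log2 fold change of -4.41 (SE 0.47, limma adjusted p = 0.000151). H2AC20 had 42.5, 75.7 and 74.9 against 0, 5.10 and 12.3 RPKM, a log2 fold change of -3.87 (SE 0.91, limma adjusted p = 0.00657). The H2AC20 call was lost after median-of-ratios rescaling (-2.17, adjusted p = 0.138) and quantile normalization (-2.50, adjusted p = 0.0853). H2AC13 had 3.99, 10.2 and 5.5 RPKM in empty vector libraries, which is 8, 22 and 15 reads, and was at 0 in all hPRM1-labelled libraries, at least 8.45-fold lower. In each of these 3 genes the groups were apart, with the empty vector above. H2AC6 went the other way, with 1.98, 4.82 and 0.612 RPKM in empty vector libraries and 21.9, 20.2 and 13.95 RPKM in the hPRM1-labelled libraries. Its log2 fold change was 2.67 (SE 0.48, limma adjusted p = 0.00185), and all 3 hPRM1-labelled libraries lay above the empty vector. H2AC6 was in hPRM2 at 8.09, 9.07 and 3.95 RPKM, between the other groups and overlapping the empty vector.

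In the H2B class, 2 of 6 genes tested were lower and 1 was higher, beside 62.5% and 12.9% of all genes. H2BC21 had 1.36, 3.07 and 1.002 RPKM in empty vector libraries and 3.42, 7.33 and 4.33 RPKM in the hPRM1-labelled libraries, a log2 fold change of 1.12 (SE 0.37, limma adjusted p = 0.0290). The groups were apart by little, and the call was lost without empty vector replicate 1 or 3 or without replicate 2 or 3 of the hPRM1-labelled libraries, with an adjusted p of up to 0.0986. H2BC12 had 6.74, 10.7 and 6.37 RPKM in empty vector libraries, 3.91, 3.63 and 2.92 RPKM in the hPRM1-labelled libraries and 315, 0 and 23.7 RPKM in hPRM2. The hPRM1-labelled libraries lay below the empty vector, at a log2 fold change of -0.97 (SE 0.26, limma adjusted p = 0.0111), which is under 2-fold and was 0.86 after median-of-ratios rescaling and 0.60 after quantile normalization. These levels are 7, 12 and 9 reads in the empty vector and 3, 2 and 2 reads in the hPRM1-labelled libraries, so they are near the limit of detection. H2BC11 (-1.71, limma adjusted p = 0.00809) and H2BC15 (-1.88, limma adjusted p = 0.0230) were called lower. Neither was called after rescaling, when H2BC11 was at 0.02, and the H2BC15 call was also lost without replicate 1 of the hPRM1-labelled libraries (adjusted p = 0.0674). The H3 class had the lowest sum of the classes. H3C12 had 0, 1.72 and 17.1 RPKM in empty vector libraries and 0, 11.5 and 4.57 RPKM in hPRM2, and H3C13 had 13.3, 0 and 0 RPKM and then 0, 4.88 and 0 RPKM. Both were at 0 in all hPRM1-labelled libraries and did not pass the filter there. Of the H3 genes only H3C10 could be tested, at 1.54 with a limma adjusted p of 0.102, and its values overlapped between the groups.

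The scaling of the libraries set the balance of these calls. Median-of-ratios rescaling moved the median of all genes from -1.72 to -0.12. Of the 28 histone genes, 7 were then higher and 8 lower, as they were with quantile normalization. Of all 13588 genes, 3926 were higher and 3945 lower after the rescaling, and 3475 and 4388 with quantile normalization. H1-2, H1-3, H1-4, H2AC13, H2AC25, H4C2, H4C3 and H4C14 were called lower under all 3 scalings, of which H1-3, H1-4, H2AC13 and H4C2 had passed the filter only through the empty vector. H4C3 was at -5.30 after the rescaling (limma adjusted p = 3.26e-05). H2AC6, H2BC21 and H4C16 were called higher under all 3, H4C16 having passed the filter only through the hPRM1-labelled libraries. With a pseudocount of 5 and in a fit of all 9 libraries the calls of H4C16 (0.51, and 1.61 with an adjusted p of 0.158) and H2BC21 (0.55, and 1.12 with an adjusted p of 0.108) were lost, and without the filter that of H2BC21 (adjusted p = 0.0507). H4C16, the gene on chromosome 12, was listed at 0 in the empty vector and at 3.21, 1.45 and 1.76 RPKM in the hPRM1-labelled libraries. With empty vector libraries left out in turn, 10 to 11 histone genes were lower, since fewer passed the filter. Without replicate 2 of the hPRM1-labelled libraries only 1 histone gene was higher. Of all genes, 5606 to 5917 were lower in the first case, and 664 of 12365 were higher in the second. The calls of H2AC11, H4C5 and H4C8, all lower, were each lost without a single hPRM1-labelled library (replicate 3, replicate 2, and replicate 2 or 3).

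**Figure D2:**
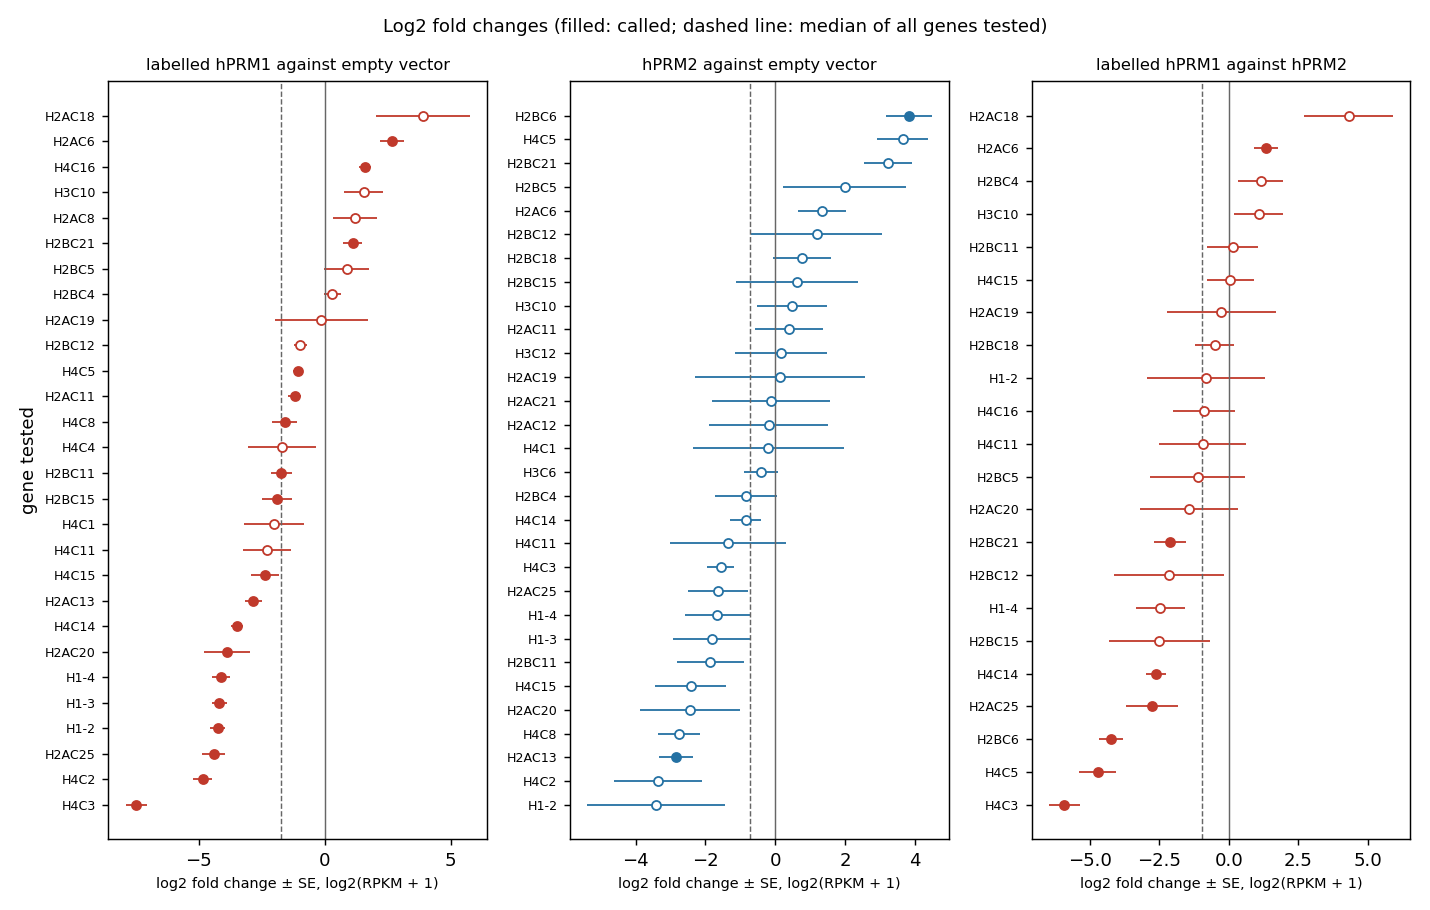
Log2 fold change of each histone gene tested, with its standard error, on the log2(RPKM + 1) scale, in the 3 comparisons (28, 30 and 22 genes). Filled points were called, and the dashed line is the median of all genes tested (-1.72, -0.72 and -0.97). H4C3 is lowest on the left and right, and in the middle panel most standard errors are wide and 2 points are filled.

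The comparison of hPRM2 with the empty vector asks whether histone messages changed in cells with a measured protamine transcript. It does not use the hPRM1-labelled libraries. Of the 68 genes, 30 passed the filter, 2 of them, H2AC13 and H4C8, only through the empty vector, so that their direction was fixed. 1 gene was called lower, H2AC13 (1 of 30, 3.33%, beside 1.37% of all 13126 genes tested), in the direction that the filter fixed, and 1 higher, H2BC6 (3.33%, beside 1.36%), where 2.74% of all genes were called in either direction. The median log2 fold change was -0.31 over the 30 histone genes and -0.72 over all genes. The groups did not overlap for 3 histone genes with hPRM2 above and for 5 with hPRM2 below, beside 6.01% and 29.9% of all genes.

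The H2B gene H2BC6 had 0, 0 and 1.55 RPKM in empty vector libraries and 12.9, 28.9 and 16.2 RPKM in hPRM2. All 3 hPRM2 libraries were above the empty vector, with a log2 fold change of 3.82 (SE 0.66, limma adjusted p = 0.0395). The call held without hPRM2 replicate 1 (adjusted p = 0.0207) and was lost without any other single library, with an adjusted p of up to 0.264 without empty vector replicate 1. The H2BC6 call was lost as well with a pseudocount of 0.1 (adjusted p = 0.0845), without the filter (adjusted p = 0.0962) and with a minimum of 10 RPKM (adjusted p = 0.0599). A gene of another name, AL353759.1, overlaps H2BC6 on the other strand. H2AC13 was at 0 in all 3 hPRM2 libraries, as in those labelled hPRM1, which is at least 3.06-fold below the empty vector. The call (limma adjusted p = 0.0385) was lost without hPRM2 replicate 2 (adjusted p = 0.127) or replicate 3 (adjusted p = 0.0537), and with only 2 empty vector libraries the gene did not pass the filter. The H2AC13 call was lost too with a pseudocount of 5 (adjusted p = 0.0594), without the filter (adjusted p = 0.123) and after quantile normalization (adjusted p = 0.140). At the depth of hPRM2, 0 reads allow 4.47, 9.31 and 7.37 RPKM, which is within the empty vector range of 3.99 to 10.2, so for single libraries the fall was not detectable at this depth.

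H4C5 and H2BC21 lay just outside the threshold. H4C5, an H4 gene (chr6:26204552-26206038), had 1.22, 1.23 and 1.72 RPKM in empty vector libraries, 0.276, 0 and 0.155 RPKM in the hPRM1-labelled libraries and 76.5, 20.3 and 15.1 RPKM in hPRM2. The lowest hPRM2 library was well above the highest of the other groups. Its log2 fold change in hPRM2 was 3.65 (SE 0.72, limma adjusted p = 0.0505), from 12, 13 and 23 reads in the empty vector and 251, 32 and 30 reads in hPRM2. H2BC21 had 51.6, 20.2 and 13.3 RPKM in hPRM2 against 1.002 to 3.07 in the empty vector, a log2 fold change of 3.23 (SE 0.68, limma adjusted p = 0.0578) and groups that were apart. Both were called higher after either rescaling, in a fit of all 9 libraries and without hPRM2 replicate 1, where H4C5 was at 2.96 (adjusted p = 0.0188) and H2BC21 at 2.70 (adjusted p = 0.0309). The highest value of both genes was in hPRM2 replicate 1, the library that stood apart.

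**Figure D3:**
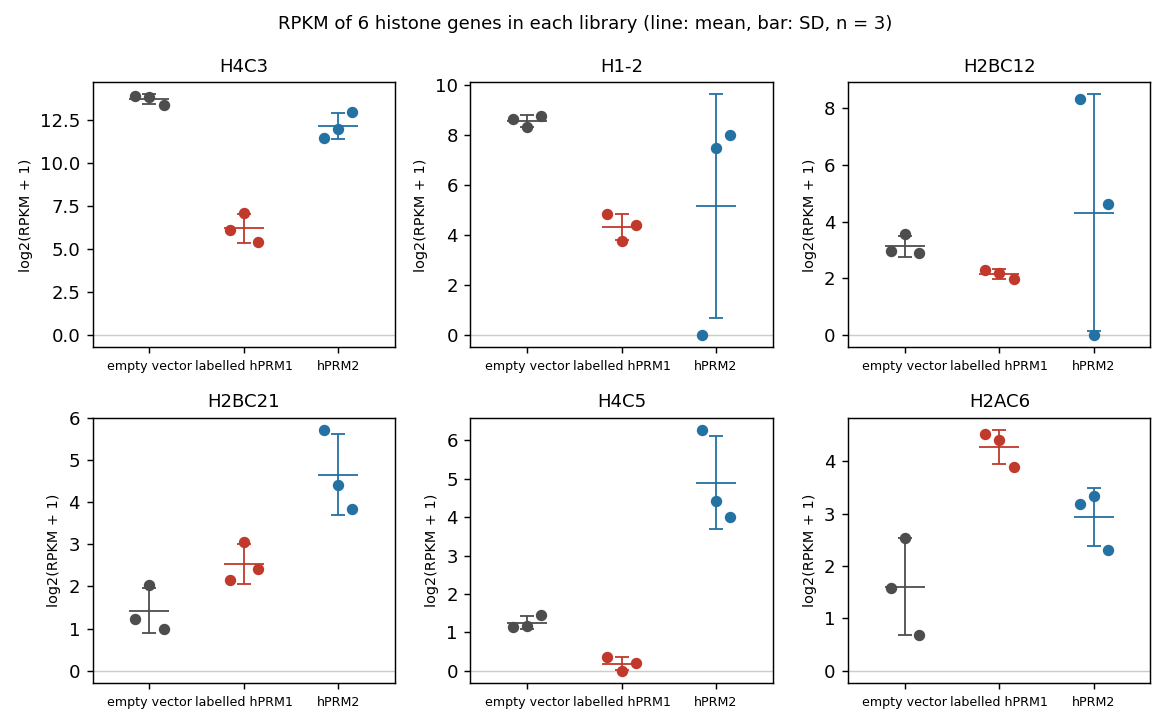
RPKM of 6 histone genes in each library on the log2(RPKM + 1) scale, with points for libraries, a line at the mean and a bar for the SD (n = 3 in each group). H4C3 and H1-2 are lowest or nearly so in the hPRM1-labelled libraries, H2BC21 and H4C5 are highest in hPRM2, H2AC6 is highest in the hPRM1-labelled libraries, and H1-2 and H2BC12 each have 1 hPRM2 library at 0.

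H4C3 itself was lower in hPRM2 than in each empty vector library, by -1.57 on the log2 scale (SE 0.38), a ratio of means of 2.73, and did not pass (limma adjusted p = 0.0751). It passed without hPRM2 replicate 1 (-1.24, adjusted p = 0.0478) and after quantile normalization (-2.21, adjusted p = 0.0385), while it stood at -1.004 with the median-of-ratios scaling (adjusted p = 0.331). H1-2 was at -3.42 (SE 1.97, limma adjusted p = 0.308), where hPRM2 replicate 1 had 0 reads (at most 2.89 RPKM) and the other 2 hPRM2 libraries 88 and 159 reads. Without that replicate the log2 fold change was -0.84. H2BC12 was at 1.18 (SE 1.87, limma adjusted p = 0.701), with 109 reads in hPRM2 replicate 1, 0 in replicate 2 and 5 in replicate 3, and -0.81 without replicate 1. Without hPRM2 replicate 1, 5 histone genes were called higher (H2BC5, H2BC6, H2BC15, H2BC21 and H4C5) and 4 lower (H1-4, H2AC13, H4C3 and H4C8). Of all 12825 genes tested, 680 were then called higher and 1577 lower. Without any other library no histone gene was called in either direction, at an adjusted p over 0.05 with limma. Of all genes, 5 to 41 were called higher and 0 to 10 lower in those fits. In them, 1455 to 3632 of all genes had an unadjusted p under 0.05.

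The 2 protamine-labelled groups were compared directly over 22 histone genes, of which H1-4, H2BC6 and H4C5 had passed the filter only through hPRM2 and had to be lower. In the hPRM1-labelled libraries, 6 of 22 genes (27.3%) were lower than in hPRM2, beside 37% of all 11756 genes, and 1 (4.55%) was higher, beside 16%. The medians were -1.03 over the histone genes and -0.97 over all genes. Groups did not overlap for 6 genes with the hPRM1-labelled libraries below and 2 with them above, beside 43.1% and 19% of all genes. H4C3 (-5.91, SE 0.55, limma adjusted p = 0.000422), H4C5 (-4.71, SE 0.66, limma adjusted p = 0.00167) and H2BC6 (-4.22, SE 0.43, limma adjusted p = 0.000527) had the largest falls, those of H4C5 and H2BC6 in the direction that the filter fixed. Without the 3 genes, 4 of 19 were lower and 1 higher. H4C14 was lower by -2.63 and H2BC21 by -2.12, with groups apart in both. H2AC25 was called lower at -2.77, although its libraries overlapped, at 1.85, 0 and 0.297 RPKM against 1.75, 18.3 and 21.2 RPKM. H2AC6 was the gene called higher, at 1.34 (SE 0.43, limma adjusted p = 0.0398), a call lost without any single library labelled hPRM1 or hPRM2 replicate 3 (adjusted p up to 0.186). The H2AC25 call was lost without any single library but hPRM2 replicate 1 (adjusted p up to 0.139), and that of H2BC21 without replicate 1 or 3 of the hPRM1-labelled libraries (adjusted p up to 0.0930). Leaving out hPRM2 replicate 1 gave 11 genes lower and 2 higher, beside 4352 and 2121 of all 10345 genes. Leaving out hPRM2 replicate 3 gave 3 genes lower and none higher, beside 2912 and 2049 of all 9926 genes. After median-of-ratios rescaling 4 genes were lower and 4 higher, beside 2151 and 3659 of all 11756 genes. H2BC21 was at -0.37 after that rescaling. This comparison shares its libraries with those above.

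The genes were also set out by where the annotated transcript ends, with limits chosen after the values had been seen. Of the 68 genes, 8 ended within 100 bases after the stem-loop, 22 ran more than 100 bases past it, and 38 held none. Of these 38 models, 33 stop at the stop codon, so no bases after it were there to be searched. For them, no stem-loop describes the annotation and not the message. Genes running past the stem-loop summed to 118, 110 and 93.8 RPKM in empty vector libraries, 48.6, 56.2 and 43.6 RPKM in the hPRM1-labelled libraries and 165, 284 and 211 RPKM in hPRM2. The 3 groups did not overlap, and here hPRM2 was highest. Genes with no stem-loop, H4C3 left out, summed to 535, 542 and 641 RPKM in empty vector libraries, 39.6, 23.5 and 38.3 RPKM in the hPRM1-labelled libraries and 339, 335 and 518 RPKM in hPRM2. These groups did not overlap either, and the empty vector was highest. Genes ending near the stem-loop had 155, 314 and 154 RPKM, then 113, 116 and 117 RPKM, then 56.7, 232 and 239 RPKM. The hPRM1-labelled libraries lay below the empty vector without overlap here, and hPRM2 overlapped both.

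Gene by gene, H2BC6, H2BC21 and H4C5, the largest rises of hPRM2, all ran past the stem-loop, by 430, 1729 and 1022 bases. Of the 14 such genes tested in hPRM2, 8 were above 0 and the median log2 fold change was 0.43, whereas over the 11 tested genes with no stem-loop 2 were above 0 and the median was -1.57, beside -0.72 over all genes. In the hPRM1-labelled libraries, all 9 tested genes with no stem-loop were below 0, with a median of -3.87 and 6 called lower. Of the 12 that ran past it 7 were called lower and 3 higher, with a median of -1.13. Over all genes tested there, 62.5% were called lower and 12.9% higher, at a median of -1.72. H2AC6, H2BC21 and H4C16, the genes higher in those libraries, ran past the stem-loop by 1128, 1729 and 1510 bases. These are counts and medians with no test, and they include the genes that passed the filter through 1 group only, such as H1-3 and H1-4 with no stem-loop. Transcript length differs with the grouping, with a median of 1806 bases in genes running past the stem-loop, 506 in those ending near it and 393 in those without, and its part was not tested.

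2 pairs of near-identical genes on chromosome 1 shared their reads. Of the 30-base words in the transcripts, H2AC18 and H2AC19 share 100% and 97.2%, and H4C14 and H4C15 100% and 91.2%, so most reads cannot be assigned to 1 copy. H2AC18 stood at 0, 134 and 0 RPKM and H2AC19 at 85.1, 0 and 118 RPKM in empty vector libraries, a switch between copies from library to library. Their sum varied less, at 85.1, 134 and 118 RPKM in empty vector libraries, 89.2, 104 and 103 RPKM in the hPRM1-labelled libraries and 56.7, 115 and 117 RPKM in hPRM2. All 3 groups overlapped. Fitted as a sum, an alternative chosen after seeing the data, H2AC18 and H2AC19 differed from the empty vector by -0.16 in the hPRM1-labelled libraries (SE 0.21, limma adjusted p = 0.512) and by -0.27 in hPRM2 (SE 0.41, limma adjusted p = 0.688). For H2AC18 with H2AC19 these differences were within the spread between libraries in the deposited scaling.

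The sum of H4C14 and H4C15 was 41.6, 32.6 and 25.7 RPKM in empty vector libraries, 1.65, 2.28 and 2.31 RPKM in the hPRM1-labelled libraries and 13.7, 17.1 and 10.5 RPKM in hPRM2. The 3 groups were apart, with the hPRM1-labelled libraries lowest. The summed log2 fold change of H4C14 with H4C15 was -3.46 in the hPRM1-labelled libraries (SE 0.25, limma adjusted p = 2.79e-05) and -1.22 in hPRM2 (SE 0.44, limma adjusted p = 0.152), the first past the threshold. Coding sequences of the other H4, H3 and H2A genes are alike as well, and how reads were split between them is not known. In addition, 8 histone genes overlap another gene on the same strand and 9 on the other strand in GENCODE 29. H2BC15 is one of these, as H2AC16 lies inside it on the same strand. It had 10.9, 6.01 and 27.2 RPKM in empty vector libraries and 0, 107 and 77.7 RPKM in hPRM2, so that hPRM2 lay on both sides of the empty vector.

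Genes that act on histone messages were followed as a list of 34, covering SLBP, the U7 particle, the cleavage complex and regulators of histone transcription. Of the 33 tested in the hPRM1-labelled libraries, 28 (84.8%) were lower and none higher, beside 62.5% and 12.9% of all genes. Their median was -2.52, beside -1.72 over all genes. 4 of the 33 had passed the filter only through the empty vector, and without them 24 of 29 were lower. SLBP, which binds the stem-loop, had 41.6, 34.8 and 40.2 RPKM in empty vector libraries, 3.11, 1.56 and 8.08 RPKM in the hPRM1-labelled libraries and 33.2, 8.58 and 15.8 RPKM in hPRM2. All hPRM2 libraries were below the empty vector, but only the hPRM1-labelled libraries passed, at -3.12 (SE 0.46, limma adjusted p = 0.000697), against -1.17 in hPRM2 (SE 0.55, limma adjusted p = 0.231). In the direct comparison SLBP was at -1.95 (limma adjusted p = 0.0537). NPAT, which activates histone genes in S phase, was lower by -1.10 in the hPRM1-labelled libraries (limma adjusted p = 0.0218) and at -2.53 in hPRM2 (limma adjusted p = 0.185). LSM10, LSM11, ZNF473 and CASP8AP2, parts or partners of the U7 particle, the HINFP factor of H4 genes and the nuclease ERI1 were lower in the hPRM1-labelled libraries, between -3.14 for CASP8AP2 and -1.48 for HINFP. LSM11 and ZNF473 had passed the filter only through the empty vector, so their direction was fixed. The U7 RNA itself, RNU7-1, which is not polyadenylated, was at 0 in all 9 libraries. In hPRM2 none of the 33 was called in either direction with limma, where 2.74% of all genes were. Their median was -0.93, beside -0.72 over all genes.

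A list of other histone variants, taken as polyadenylated without a check of their ends, was measured in the same libraries. Of 11 tested in the hPRM1-labelled libraries, 8 (72.7%) were lower and none higher, beside 62.5% and 12.9% of all genes. Of the 8, 2 had passed the filter only through the empty vector. The median was -2.75 (-2.59 without the gene at 0 throughout a group). None of the 11 tested in hPRM2 was called, where 2.74% of all genes were, at a median of -0.56, beside -0.72 over all genes. H2AZ1, a replication-independent H2A variant, averaged 2396 ± 276 RPKM in empty vector libraries (SD, n = 3) but 56.3 ± 6.32 RPKM in the hPRM1-labelled libraries. The log2 fold change of H2AZ1 was -5.39 (limma adjusted p = 2.46e-06). H2AX, which marks DNA breaks when phosphorylated, was lower by -3.09 (limma adjusted p = 7.54e-05). H3-3A had 2526, 2775 and 2401 RPKM in empty vector libraries. In the hPRM1-labelled libraries it had 2111, 2577 and 2689 RPKM, within an overlapping range. Its difference was -0.07 (SE 0.14, limma adjusted p = 0.681), and that of H3-3B, which codes for the same H3.3 protein, was -0.28 (SE 0.15, limma adjusted p = 0.116). Of 26 S phase genes, such as MCM2 and PCNA, all 25 tested were lower in the hPRM1-labelled libraries, beside 62.5% of all genes, with a median of -4.50, beside -1.72. Of the 25, 11 had passed the filter only through the empty vector and had to be lower, and the other 14 were called lower as well. None of 26 was called in hPRM2, where 2.74% of all genes were. Their median there was -0.72, the same as that of all genes to this precision.

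**Figure D4:**
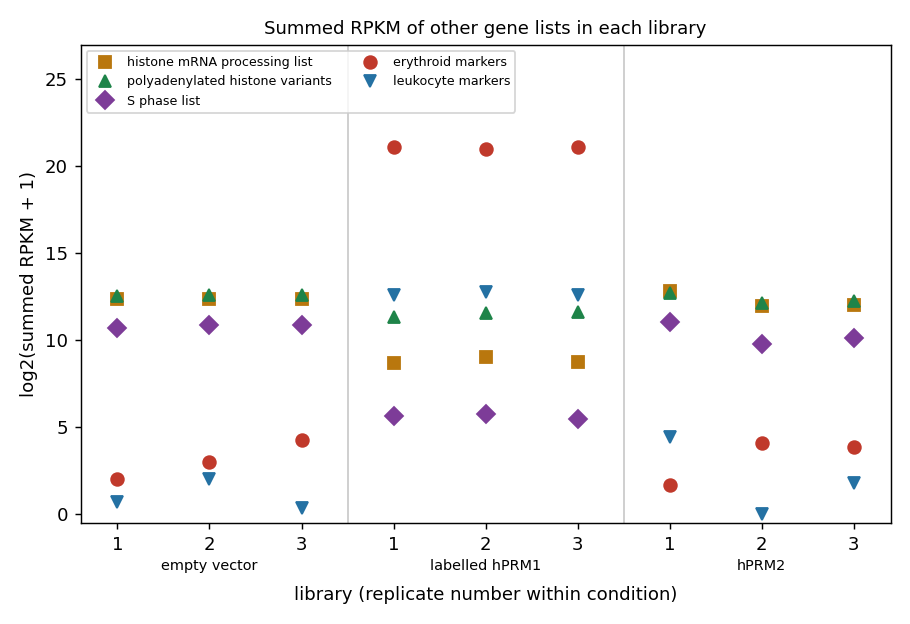
Summed RPKM, as log2(sum + 1), of other gene lists in each library. They are the histone mRNA processing list, histone variants taken as polyadenylated, the S phase list, and the erythroid and leukocyte markers. The erythroid markers sum to 2061140 RPKM or more in the hPRM1-labelled libraries and to at most 18.2 elsewhere, while the processing list stands at 409 to 517 RPKM there and at 4093 or more elsewhere.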

How the data were processed

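RNA of 9 samples labelled as sorted HEK293T cells was sequenced with 3′ libraries (QuantSeq). The 3 labelled hPRM1 have PRM1 at 0 and high blood cell markers. The authors deposited RPKM values, made from gene counts by scaling to the total reads of the library and to gene length. The submitters' processing notes name FastQC, cutadapt, STAR, Salmon and hg38, and versions were not given in the sources used here. Mitochondrial genes had been removed. All 9 columns were used.

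Groups came from the sample labels. Each pair of groups was fitted with limma 3.58.1 (R 4.3.3, trend and robust) on log2(RPKM + 1), over genes with at least 1 RPKM in at least 3 of the 6 libraries compared. The pseudocount of 1 understates the change of low genes. Calls needed a Benjamini-Hochberg adjusted p of at most 0.05 over all genes tested and at least 2-fold. The scripts were tested on simulated data. limma replaced a test of each gene alone, which is given as an alternative.

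Reads were estimated from the step that 1 read gives, with 250 bases subtracted from GENCODE 29 lengths, over 13863 genes, and 92.1% of values below 20 reads came out whole within 0.05. They were computed for 49 histone genes with 1 transcript, where 136 of 152 values were whole. Bounds against a group at 0 used 3 reads over the group, and these floors cover counting error only. With 1273000 to 10785000 reads a library, most histone genes rest on few reads.

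Named genes were H1-2, H4C3 and H2BC12, the 2 genes of each class with the highest empty vector mean, the 5 largest rises and falls called in each comparison, and set members of the 2 gene lists, of which 1 is not reported here. Other genes named were chosen after their values were seen. The members and lists were chosen with earlier results of these data known. Alternatives were pseudocounts of 0.1 and 5, no filter, a minimum of 10 RPKM, median-of-ratios and quantile scaling, the replicate number as a block, all 9 libraries fitted together, a test of each gene alone, summed near-identical genes and leaving out each library. Python 3.11.15, pandas 2.3.3, numpy 2.4.6 and matplotlib 3.10.9 were used.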

Additional observations from a re-analysis of the deposited data

How the results depend on the processing

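In the hPRM1-labelled libraries against the empty vector (3 histone genes higher, 15 lower), 7 were higher and 8 lower after median-of-ratios rescaling, and also after quantile normalization. The count of higher genes was 1 with a pseudocount of 5, with a minimum of 10 RPKM, in a fit of all 9 libraries and in the test of each gene alone, where the lower genes numbered 11, 8, 10 and 5. Of all 13588 genes, 1750 were higher and 8491 lower in the fit described above. The counts were 3926 and 3945 after median-of-ratios rescaling and 3475 and 4388 after quantile normalization. The other settings gave 1152, 867 (of 6983), 1545 and 791 higher and 6341, 4970, 7292 and 3723 lower, in the same order. Leaving out 1 library gave 1 to 4 histone genes higher and 10 to 15 lower. For all genes it gave 664 to 1816 and 5606 to 8478. H2AC19 changed sign to 0.89 with a pseudocount of 0.1, 1.60 after median-of-ratios rescaling and 1.28 after quantile normalization, and ranged from -2.36 to 1.09 with 1 library left out. H2BC11 went to 0.024 after median-of-ratios rescaling, and H2BC12 to 0.86 and 0.60 under the 2 scalings.

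In hPRM2 against the empty vector (1 higher, 1 lower), a pseudocount of 0.1 gave 0 higher and 2 lower, and a pseudocount of 5 gave 1 and 0. No filter, a minimum of 10 RPKM and the test of each gene alone gave 0 and 0. Either scaling gave 3 higher and 1 lower, and a fit of all 9 libraries 3 and 2. Of all 13126 genes, 179 were higher and 180 lower in the fit described above. The pseudocounts gave 132 and 172 (0.1) and 152 and 101 (5). No filter gave 72 and 17 of 20888, and the minimum of 10 RPKM 123 and 44 of 7106. The test of each gene alone gave 0 and 9. Median-of-ratios gave 216 and 81, quantile scaling 342 and 70, and all 9 libraries together 507 and 1618. Leaving out 1 library gave 0 to 5 histone genes higher and 0 to 4 lower. For all genes it gave 5 to 680 and 0 to 1577. H2BC15 went to -0.38 with a pseudocount of 0.1. With 1 library left out, H2AC19 ranged from -2.08 to 2.43, H2BC12 from -0.81 to 3.34, H2BC15 from -0.59 to 2.79, H3C12 from -0.77 to 1.32 and H4C11 from -2.68 to 0.40.

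Between the protamine-labelled groups (1 higher, 6 lower), a pseudocount of 5 gave 0 higher and 5 lower, a minimum of 10 RPKM 2 and 5, median-of-ratios rescaling 4 and 4, quantile normalization 3 and 5, a fit of all 9 libraries 0 and 7 and the test of each gene alone 0 and 0. Of all 11756 genes, 1879 were higher and 4355 lower in the fit described above. A pseudocount of 5 gave 1304 and 3622, and a minimum of 10 RPKM 922 and 2828 of 5347. Median-of-ratios gave 3659 and 2151, and quantile scaling 2897 and 3104. All 9 libraries together gave 2025 and 4730, and the test of each gene alone 116 and 103. Leaving out 1 library gave 0 to 2 histone genes higher and 3 to 11 lower. For all genes it gave 402 to 2121 and 2912 to 4352. H1-2 went to 0.22 with a pseudocount of 0.1, 0.69 after median-of-ratios rescaling and 0.20 after quantile normalization, and ranged from -3.39 to 0.60 with 1 library left out. H2AC19 went to 0.75, 1.21 and 0.68 under the same settings, with a range of -2.56 to 0.88. H2BC11 was at -0.10 with a pseudocount of 5, with a range of -0.59 to 1.14. After median-of-ratios rescaling H4C11 was at 0.44 and H4C16 at 0.35, with ranges of -2.69 to 0.39 and -2.14 to 0.0039. The cause of these changes was not tested.

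Samples with the same replicate number did not deviate together (correlations of -0.081 to 0.105). With 3 libraries a group this cannot show whether libraries of the same number were prepared together, which the labels do not say. With the replicate number as a block, 3 histone genes were higher and 15 lower in the hPRM1-labelled libraries. The counts were 0 and 0 in hPRM2, and 1 and 6 between the protamine-labelled groups. For all genes the same fits gave 1783 and 8551, 49 and 8, and 1797 and 4019. Depth limits the low genes most in hPRM2, the group with the fewest estimated reads on genes. In the total reads that the paper reports, the hPRM1 samples had the fewest.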
